A study of Mus musculus with 8 samples.

Results

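The bone morphogenetic protein (BMP) genes described here are the ligands Bmp4 and Bmp6, the receptors Bmpr1a and Bmpr2, the signal carriers Smad1 and Smad5, the inhibitory Smad6 and the target genes Id1, Id2 and Id3. The set was chosen with earlier results of these data known. The rule that picks these 10 genes uses their names and no measured value. They stand among 22664 gene symbols on 22206 probe sets of the Clariom S Mouse array, and each is measured by 1 probe set. The arrays compare mouse gastrocnemius (GAS) muscle after knockdown of MYTHO (MYTHO-KD), the product of D230025D16Rik, with control muscle. All mice were male C57/Bl6j, injected at about 10 weeks of age and 22 weeks old when the muscle was taken, 12 weeks after injection. The MYTHO-KD group (4 arrays) received AAV sh-RNA MYTHO, an adeno-associated virus of serotype 1 that drives a short hairpin RNA from a U6 promoter. The scramble group (4 arrays) received the same kind of virus with a scramble hairpin (AAV sh-RNA scrmb), which the methods place in the opposite leg. The U6 promoter is not restricted to muscle fibres, and muscles of both groups were injected and carried a hairpin. The values analysed are the average and the SD of each group on the log2 scale, so no value of a single array is given below.

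BMP ligands bind a complex of type I receptors such as BMPR1A and the type II receptor BMPR2, which phosphorylates SMAD1, SMAD5 and SMAD9. These join SMAD4, enter the nucleus and switch on target genes, among them the Id genes and Smad6, whose product closes a negative feedback loop. Id proteins lack a DNA-binding region and hold basic helix-loop-helix (bHLH) factors, the class that includes MyoD, away from DNA. In skeletal muscle the pathway is known to favour fibre growth and to compete with myostatin for the shared SMAD4. The pathway acts through phosphorylation, which an RNA array does not measure, so the transcript levels of the target genes are its nearest readout here.

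Id2 and Smad6 are 2 of the direct targets, and the 250 bases in front of their start sites are shown to let the reader see the kind of sequence that the Smads read (RefSeq, GRCm38.p6, minus strand for both genes). Capitals mark GGCGCC, a GC-rich letter run that BMP-activated Smads can bind, and GTCT or its reverse complement AGAC, the short element bound by SMAD4.
Id2, chr12:25096093-25096342: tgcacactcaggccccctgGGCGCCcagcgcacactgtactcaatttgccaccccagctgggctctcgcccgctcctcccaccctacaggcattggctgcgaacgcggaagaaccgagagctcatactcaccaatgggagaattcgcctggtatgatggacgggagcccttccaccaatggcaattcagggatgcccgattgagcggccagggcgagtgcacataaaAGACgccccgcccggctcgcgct
Smad6, chr9:64022060-64022309: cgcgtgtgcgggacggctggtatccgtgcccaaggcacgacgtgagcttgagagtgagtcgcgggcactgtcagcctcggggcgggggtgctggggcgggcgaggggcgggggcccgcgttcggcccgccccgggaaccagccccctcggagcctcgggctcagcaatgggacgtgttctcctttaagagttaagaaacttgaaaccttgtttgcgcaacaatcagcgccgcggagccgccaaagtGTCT
The Id2 window held GGCGCC, which is its own reverse complement, and AGAC, while the Smad6 window held GTCT at its last bases and no GGCGCC. The RefSeq promoter table had windows for 9 of the 10 genes, 11 windows in all, and none for Id1. GGCGCC occurred in a window of 4 of the genes (Id2, Smad5, Bmpr1a and Bmpr2) and in 9.59% of all 32851 promoter windows of this length. GTCT or AGAC occurred in a window of 6 of the genes and in 82.9% of all windows, and CANNTG, the E-box read by the bHLH factors that Id proteins hold back, in 4 of the genes and in 66.2% of all windows. The members are counted by gene and the background by window, so these shares are not in like units. Smad5 had several windows, any of which could hold a match. These letter matches describe the windows and were not tied to any measured difference.

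The knockdown showed in the table: D230025D16Rik averaged 7.71 ± 0.66 (SD, n = 4) in MYTHO-KD muscle and 10.02 ± 0.37 (SD, n = 4) in scramble muscle on the log2 scale. The log2 difference was -2.31 ± 0.304 (SE), which is 0.202 times the scramble level (limma's moderated test, adjusted p = 0.0138). Genes that define skeletal muscle fibres were strongly expressed, with Acta1, Myh4 and Atp2a1 at 19.93 in both groups, a ceiling of the scale that would mask any further increase.

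None of the 10 BMP and Id genes passed limma's moderated test, an empirical Bayes test of the difference computed here from the group averages and SDs, at an unadjusted two-sided p under 0.05. At that threshold 6.48% of all probe sets were higher in MYTHO-KD muscle and 5.52% were lower. No member passed the study's rule of a 2-fold change with p under 0.05 either, applied here with the p computed from averages and SDs. With this p, 0.860% of all probe sets met the rule upward and 0.257% met it downward. The study's own p-values gave other counts under its rule. No member passed an adjusted p under 0.05, which 0.275% of all probe sets did. The adjusted p-values of the members, over all probe sets, ran from 0.53 for Id2 to 0.99 for Bmpr1a. In each of the 10 genes the 95% interval of the log2 difference lay inside 2-fold in both directions, as it did for 89.0% of all probe sets, and its half-width ran from 0.34 for Bmpr2 to 0.59 for Id1. A 2-fold change lay outside each of these intervals, and changes smaller than the half-widths could not pass this unpaired test with 4 arrays per group. The methods place the viruses in opposite legs, a pairing that group averages and SDs do not allow the test to use. In whole muscle RNA, fewer cells of a type and less RNA per cell cannot be told apart.

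**Figure D1:**
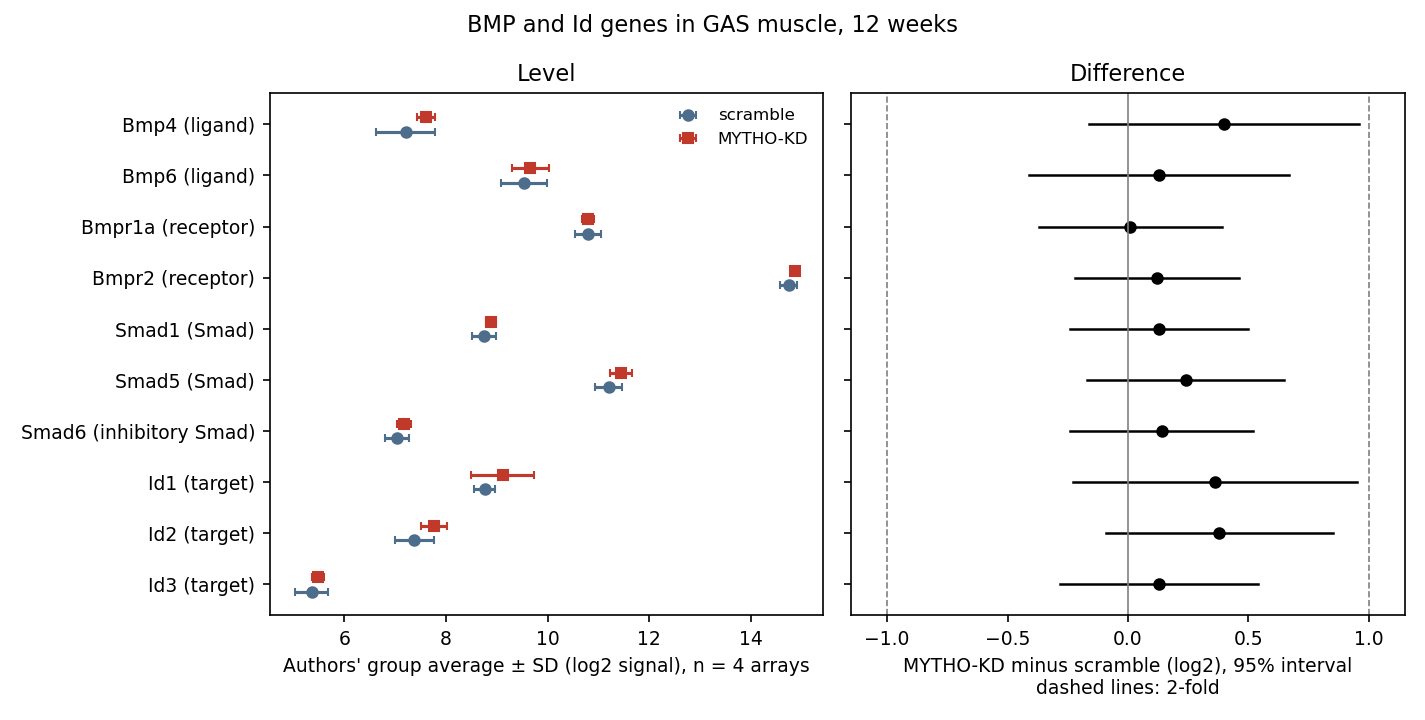
Left, the authors' group averages with SD (log2 signal, 4 arrays per group) of the 10 BMP and Id genes in scramble (circles) and MYTHO-KD (squares) GAS muscle. Right, the log2 difference, MYTHO-KD minus scramble, with its 95% interval, and dashed lines at 2-fold: every interval spans 0 and stays inside the dashed lines, with Bmp4 farthest to the right at 0.40.

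Among the ligands, Bmp4, a secreted BMP that patterns many embryonic tissues, had the largest average difference of the 10 genes. It averaged 7.61 ± 0.17 (SD, n = 4) in MYTHO-KD and 7.21 ± 0.58 (SD, n = 4) in scramble muscle (chr14:46383520-46390669, mm10, minus strand). The SD bands overlapped, and the scramble arrays were the more widely spread. The log2 difference was 0.40 ± 0.257 (SE), a fold of 1.32 with a 95% interval from 0.894 to 1.95 (limma's moderated test, adjusted p = 0.592), and 16.6% of all probe sets differed by more in either direction. Bmp6, the ligand best known for telling the liver to make the iron hormone hepcidin, averaged 9.66 ± 0.36 (SD, n = 4) against 9.53 ± 0.45 (SD, n = 4) in scramble (chr13:38345716-38499728, plus strand). Its groups lay almost on top of each other, and the log2 difference was 0.13, with an interval from -0.41 to 0.67 (limma's moderated test, adjusted p = 0.897).

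Both receptors differed little between the groups on average, and neither passed the test. Bmpr1a, a type I receptor that phosphorylates the Smads, averaged 10.80 ± 0.12 (SD, n = 4) in MYTHO-KD and 10.79 ± 0.26 (SD, n = 4) in scramble muscle (chr14:34410734-34503341, minus strand). Its log2 difference of 0.01 was the smallest of the 10 genes, with an interval from -0.37 to 0.39 (limma's moderated test, adjusted p = 0.99), and 95.1% of all probe sets differed by more. Bmpr2, the type II receptor that activates the type I partner, averaged 14.86 ± 0.07 (SD, n = 4) against 14.74 ± 0.17 (SD, n = 4) in scramble muscle (chr1:59764279-59879014, plus strand). It had the tightest arrays of the group and the narrowest interval, from -0.22 to 0.46 around a log2 difference of 0.12 (limma's moderated test, adjusted p = 0.829).

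Smad1 and Smad5 carry the signal from receptor to nucleus. Smad1 averaged 8.88 ± 0.10 (SD, n = 4) in MYTHO-KD and 8.75 ± 0.24 (SD, n = 4) in scramble muscle (chr8:79338395-79399518, minus strand), a log2 difference of 0.13 with an interval from -0.24 to 0.50 (limma's moderated test, adjusted p = 0.83). Smad5 averaged 11.44 ± 0.22 (SD, n = 4) against 11.20 ± 0.26 (SD, n = 4) in scramble muscle (chr13:56703010-56742378, plus strand). The difference of 0.24 in Smad5 was about as large as either SD, with an interval from -0.17 to 0.65 (limma's moderated test, adjusted p = 0.672). Smad6, the inhibitory Smad that BMP signalling itself induces and that blocks its own receptors and Smads, averaged 7.18 ± 0.14 (SD, n = 4) in MYTHO-KD and 7.04 ± 0.24 (SD, n = 4) in scramble muscle (chr9:63953076-64022059, minus strand). Its SD bands overlapped, and the log2 difference of 0.14 had an interval from -0.24 to 0.52 (limma's moderated test, adjusted p = 0.82).

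The Id genes are the classical readout of BMP signalling. Id1 averaged 9.12 ± 0.62 (SD, n = 4) in MYTHO-KD and 8.76 ± 0.21 (SD, n = 4) in scramble muscle (chr2:152736251-152737410, plus strand). It was the only one of the 10 genes whose MYTHO-KD arrays were more spread than its scramble arrays, and the scramble average lay within 1 SD of the MYTHO-KD average. The log2 difference of Id1 was 0.36 ± 0.272 (SE), a fold of 1.28 with a 95% interval from 0.85 to 1.94 (limma's moderated test, adjusted p = 0.662). Id2 averaged 7.76 ± 0.26 (SD, n = 4) against 7.38 ± 0.38 (SD, n = 4) in scramble muscle (chr12:25093799-25096092, minus strand). Id2 had the lowest p of the 10 genes, with a log2 difference of 0.38 ± 0.216 (SE), a fold of 1.30 and a 95% interval from 0.938 to 1.80 (limma's moderated test, adjusted p = 0.53). Id3 gave a low signal, at 5.49 ± 0.12 (SD, n = 4) in MYTHO-KD and 5.36 ± 0.33 (SD, n = 4) in scramble muscle (chr4:136143497-136147320, plus strand), though the table flags it as expressed in both groups, as it does all 10 genes. Its log2 difference was 0.13, with an interval from -0.28 to 0.54 (limma's moderated test, adjusted p = 0.851). Id4, the family member outside the chosen 10, stood at 7.27 ± 0.11 (SD, n = 4) and 7.15 ± 0.13 (SD, n = 4), a log2 difference of 0.12 with an interval from -0.21 to 0.45.

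The averages of the 10 genes were all higher in MYTHO-KD muscle, where 46.9% of all probe sets were, and their median log2 difference was 0.135 against -0.01 over all probe sets. These genes are measured on the same 8 arrays and are not independent replicates, so the shared sign is a description of these arrays. The SD bands of the groups overlapped in 10 of 10 genes, and in 92.0% of all probe sets. The members also lay mostly among the brighter probe sets, and brighter probe sets were higher in MYTHO-KD muscle somewhat more often. With the probe sets ranked by brightness into 5 equal bins, 52.3% were higher in the brightest bin, which holds Smad5, Bmpr1a and Bmpr2. In the next bin, which holds Id1, Id2, Smad1 and Bmp6, 52.8% were higher, and the median difference there was 0.03. The middle bin, with Smad6 and Bmp4, had 46.2% higher, and the bin below it, with Id3, had 41.2%. The part of brightness in the shared sign was not tested. The median absolute difference of the members was 0.135, under the 0.18 over all probe sets.

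**Figure D2:**
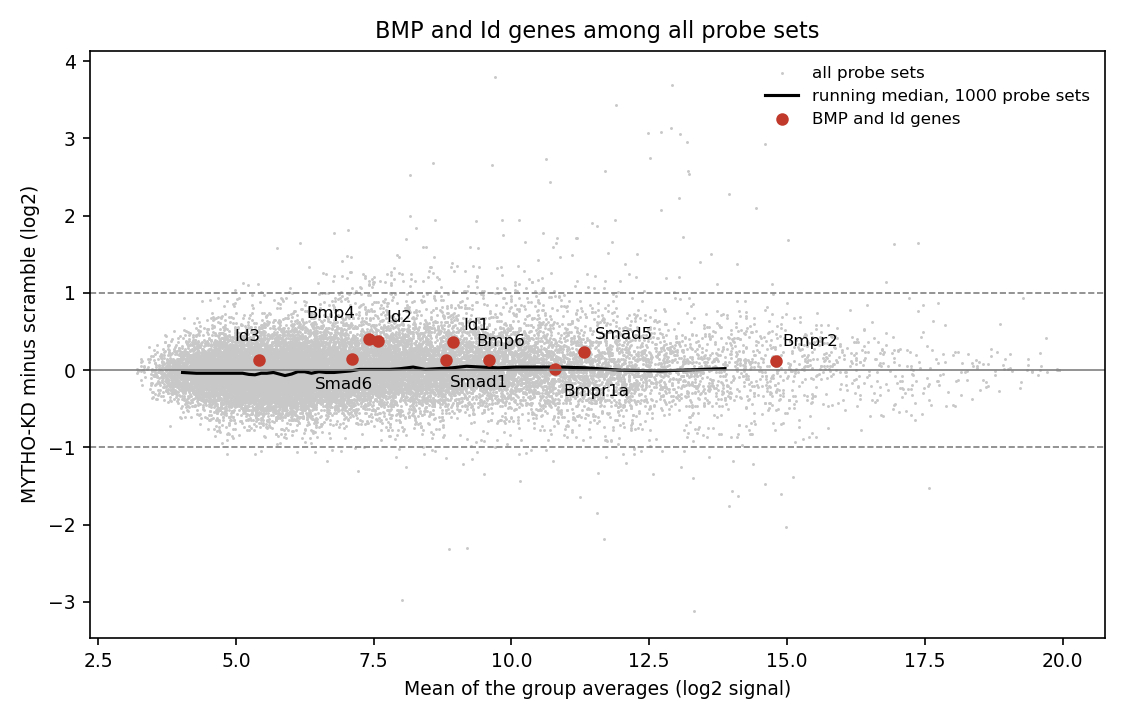
Log2 difference, MYTHO-KD minus scramble, against the mean of the group averages (log2 signal) for all 22206 probe sets (grey), with the running median over 1000 probe sets (line), dashed lines at 2-fold and the 10 BMP and Id genes (red). The 10 genes lie between 0.01 and 0.40, within the grey cloud at their own brightness.

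The spread differed between the groups for most members. The scramble SD was the larger one in 9 of the 10 genes, Id1 being the exception, with a median SD of 0.260 in scramble and 0.155 in MYTHO-KD muscle. Over all probe sets the scramble SD was larger in 49.5% and the MYTHO-KD SD in 48.1%, with a median of 0.27 in both groups. With SDs from 4 arrays each and no single values, the spreads were compared as a description only.

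Beyond the 10 genes, 72 other genes of the pathway were read from 7 lists. Of these, 4 were higher and 2 were lower at an unadjusted p under 0.05, 66 did not pass, and none passed after adjustment over all probe sets. Read against the 6.48% and 5.52% of all probe sets that passed in each direction, these counts are near the background. The median log2 difference of the 72 genes was 0.04.

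The 9 other BMP ligands ranged from -0.10 to 0.17 on the log2 scale with none past the test, and the table flags Bmp7 as not expressed in either group and Bmp2 as not expressed in scramble muscle. Bmp2, Bmp7, Bmp10, Gdf2 and Gdf6 had mean signals under 5.71, the limit used for dim probe sets, where a fall may be understated. Of the 9 other receptors and co-receptors, Eng passed upward and the median was 0.08. Eng encodes endoglin, a co-receptor for BMP9 and BMP10 that is best known from blood vessel lining. It averaged 12.57 ± 0.19 (SD, n = 4) in MYTHO-KD and 11.93 ± 0.60 (SD, n = 4) in scramble muscle, a log2 difference of 0.64 (limma's moderated test, adjusted p = 0.364), and it no longer passed the unadjusted threshold without variance moderation. Acvr1, a type I receptor for BMPs, stood at 7.45 against 7.28 in scramble muscle, a log2 difference of 0.17 with an interval from -0.35 to 0.69.

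Of 10 other Smads and Smad regulators, 9 had a higher average, as 46.9% of all probe sets did. The median of the list was 0.205, and Ski passed. Ski encodes a repressor that binds Smad complexes on DNA and dampens their output. It rose from 8.58 ± 0.26 (SD, n = 4) in scramble to 9.17 ± 0.18 (SD, n = 4) in MYTHO-KD muscle with SD bands that did not overlap, a log2 difference of 0.59 (limma's moderated test, adjusted p = 0.209). The partner Smad4 differed by 0.02, from 12.10 to 12.12, the receptor Smad Smad9 by 0.04, from 4.97 to 5.01, and the inhibitory Smad7 by 0.12, from 4.78 to 4.90, none of them past the test. Smad9 and Smad7 gave low signals, under the limit used for dim probe sets (5.71).

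Of the 16 extracellular antagonists and modulators, 7 had a higher and 9 a lower average, with a median of -0.07. Sostdc1, which encodes a secreted BMP and Wnt antagonist, was the one past the test. It averaged 6.71 ± 0.32 (SD, n = 4) in MYTHO-KD and 7.23 ± 0.36 (SD, n = 4) in scramble muscle, a log2 difference of -0.52 (limma's moderated test, adjusted p = 0.382), and this call too was lost without moderation. Nog, which encodes the BMP trap noggin, stood at 5.38 against 5.62, a log2 difference of -0.24 with an interval from -0.69 to 0.21. Both Nog averages lay under the limit used for dim probe sets (5.71). The 11 other BMP target genes, Id4 among them, held none past the test and ranged from -0.17 to 0.26.

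Among 7 bHLH partners of Id proteins, Tcf12, which encodes the E protein HEB that pairs with MyoD, passed the test. It rose from 12.22 ± 0.26 (SD, n = 4) to 12.75 ± 0.04 (SD, n = 4) in MYTHO-KD muscle, a log2 difference of 0.53 (limma's moderated test, adjusted p = 0.23), and its SD bands did not overlap. Myod1, Myf5, Myf6 and Myog, the myogenic factors of the list, did not pass. Myod1, Myf5 and Myf6 had lower averages in MYTHO-KD muscle. Myog averaged 6.55 in MYTHO-KD and 6.34 in scramble muscle, a log2 difference of 0.21 with an interval from -0.19 to 0.61. By RT-qPCR the study reports higher Myog at various times of knockdown in the tibialis anterior, a different muscle.

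The list of 10 genes on the BMP axis of muscle mass had 5 higher and 5 lower averages. Its member Fbxo30, the ubiquitin ligase MUSA1 that BMP signalling is known to hold down in muscle, stood at 10.66 ± 0.16 (SD, n = 4) in MYTHO-KD and 10.52 ± 0.20 (SD, n = 4) in scramble muscle, a log2 difference of 0.14 with an interval from -0.23 to 0.51. The study reports Musa1 mRNA as lower in MYTHO-KD muscle under basal conditions, in a separate measurement that was not compared here. Mstn, encoding myostatin, averaged 12.45 ± 1.10 (SD, n = 4) in MYTHO-KD and 13.71 ± 0.39 (SD, n = 4) in scramble muscle. Its log2 difference was -1.26 (limma's moderated test, adjusted p = 0.275), a call that was lost without moderation. For Mstn the study reports lower mRNA by RT-qPCR in GAS muscle after prolonged knockdown. That separate measurement was not compared here. Gdf11, a close relative of Mstn, averaged 9.62 ± 0.63 (SD, n = 4) against 8.23 ± 0.67 (SD, n = 4), a log2 difference of 1.39 (limma's moderated test, adjusted p = 0.146).

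**Figure D3:**
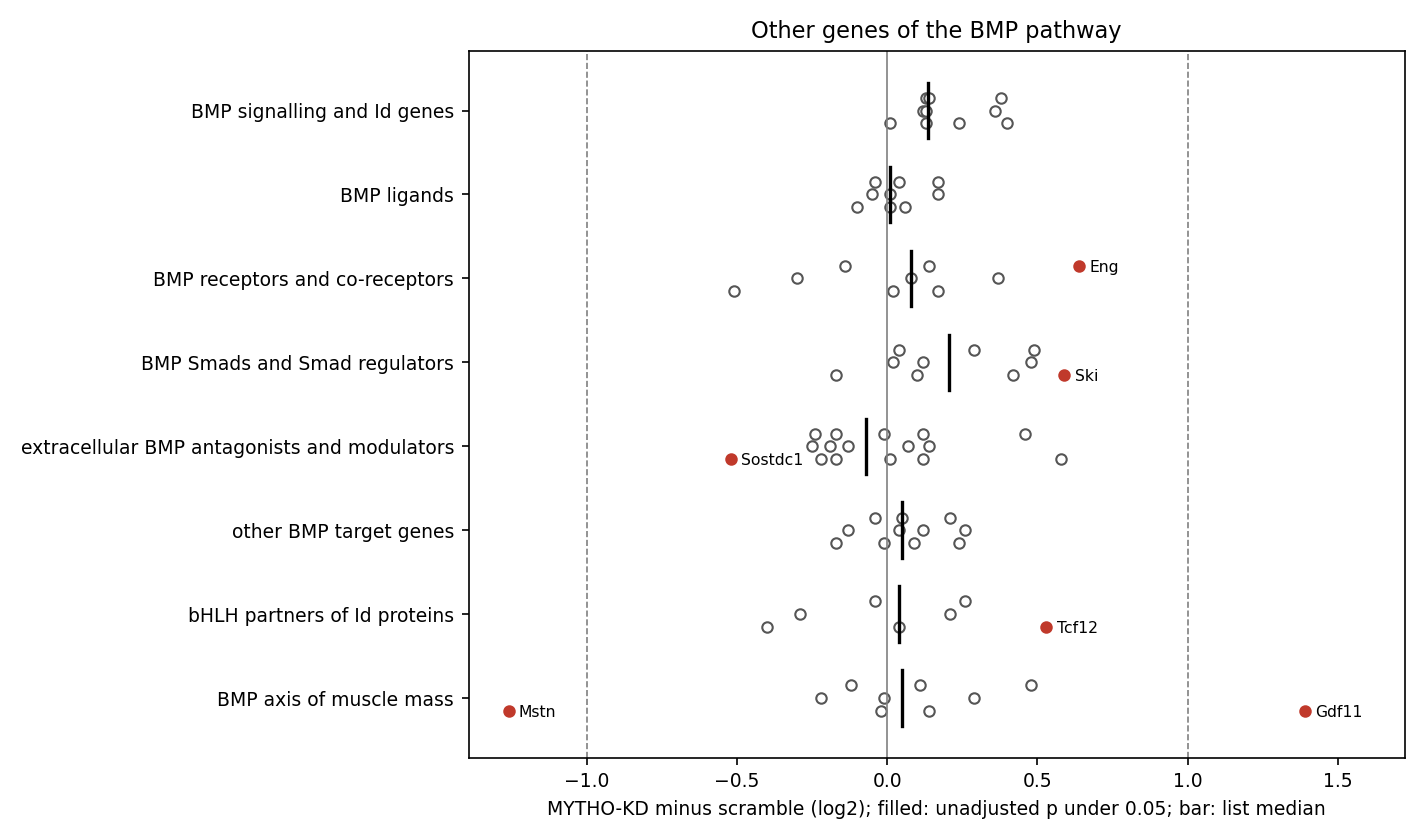
Log2 difference, MYTHO-KD minus scramble, of each gene of the BMP lists (points), with filled points at an unadjusted p under 0.05, a bar at each list's median and dashed lines at 2-fold. The 10 BMP and Id genes at the top have no filled point, and the 6 filled points below are Eng, Ski, Sostdc1, Tcf12, Mstn and Gdf11, of which Mstn and Gdf11 lie beyond 2-fold.

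Several BMP genes are used by cells other than muscle fibres, and the averages of markers of some of these cells differed between the groups. All 10 endothelial markers had higher averages in MYTHO-KD muscle, as 46.9% of all probe sets did. Of these markers, 2 passed an unadjusted p under 0.05 upward, as 6.48% of all probe sets did, and none passed an adjusted one. The SD bands of the groups overlapped in 9 of the 10. The median difference of the list was 0.34, with a mean of the averages of 9.82 against 9.47 in scramble muscle. Kdr, a VEGF receptor, led that list at 0.75 (limma's moderated test, adjusted p = 0.19). All 8 macrophage markers were higher on average, 4 past the unadjusted threshold and 2 past the adjusted one. That adjusted threshold was passed by 0.275% of all probe sets in either direction. The macrophage median was 0.825, with a mean of the averages of 8.38 against 7.33. The lysosomal glycoprotein gene Cd68 differed by 2.53 (limma's moderated test, adjusted p = 0.0182) and the lysozyme gene Lyz2 by 1.94 (adjusted p = 0.0277). Of 8 fibroblast and fibro-adipogenic progenitor markers, 7 were higher and 1 was equal, 3 past the unadjusted threshold, with a median of 0.56 and a mean of 10.38 against 9.67. The collagen-binding proteoglycan gene Lum differed by 1.49 (limma's moderated test, adjusted p = 0.0443). The part of these cell types in the averages of the BMP and Id genes, and in that of Eng, was not tested.

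In the other lists, 2 of 8 muscle fibre markers (Mb and Myh1) and 2 of 4 blood markers (Hbb-bs and Alas2) passed upward at an unadjusted p under 0.05, as 6.48% of all probe sets did, and none did of 6 satellite cell and myoblast, 6 smooth muscle and pericyte, 5 Schwann cell, 6 lymphocyte and 5 adipocyte markers. Hbb-bs was lost without moderation, and both blood markers with unequal variances. The medians of these lists were 0.00 for fibre, 0.485 for blood, 0.035 for satellite cell, 0.115 for smooth muscle, 0.05 for Schwann cell, -0.20 for lymphocyte and -0.33 for adipocyte markers. The table flags every marker as expressed in both groups except Cd3g of the lymphocyte list, which it flags in scramble muscle alone.

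**Figure D4:**
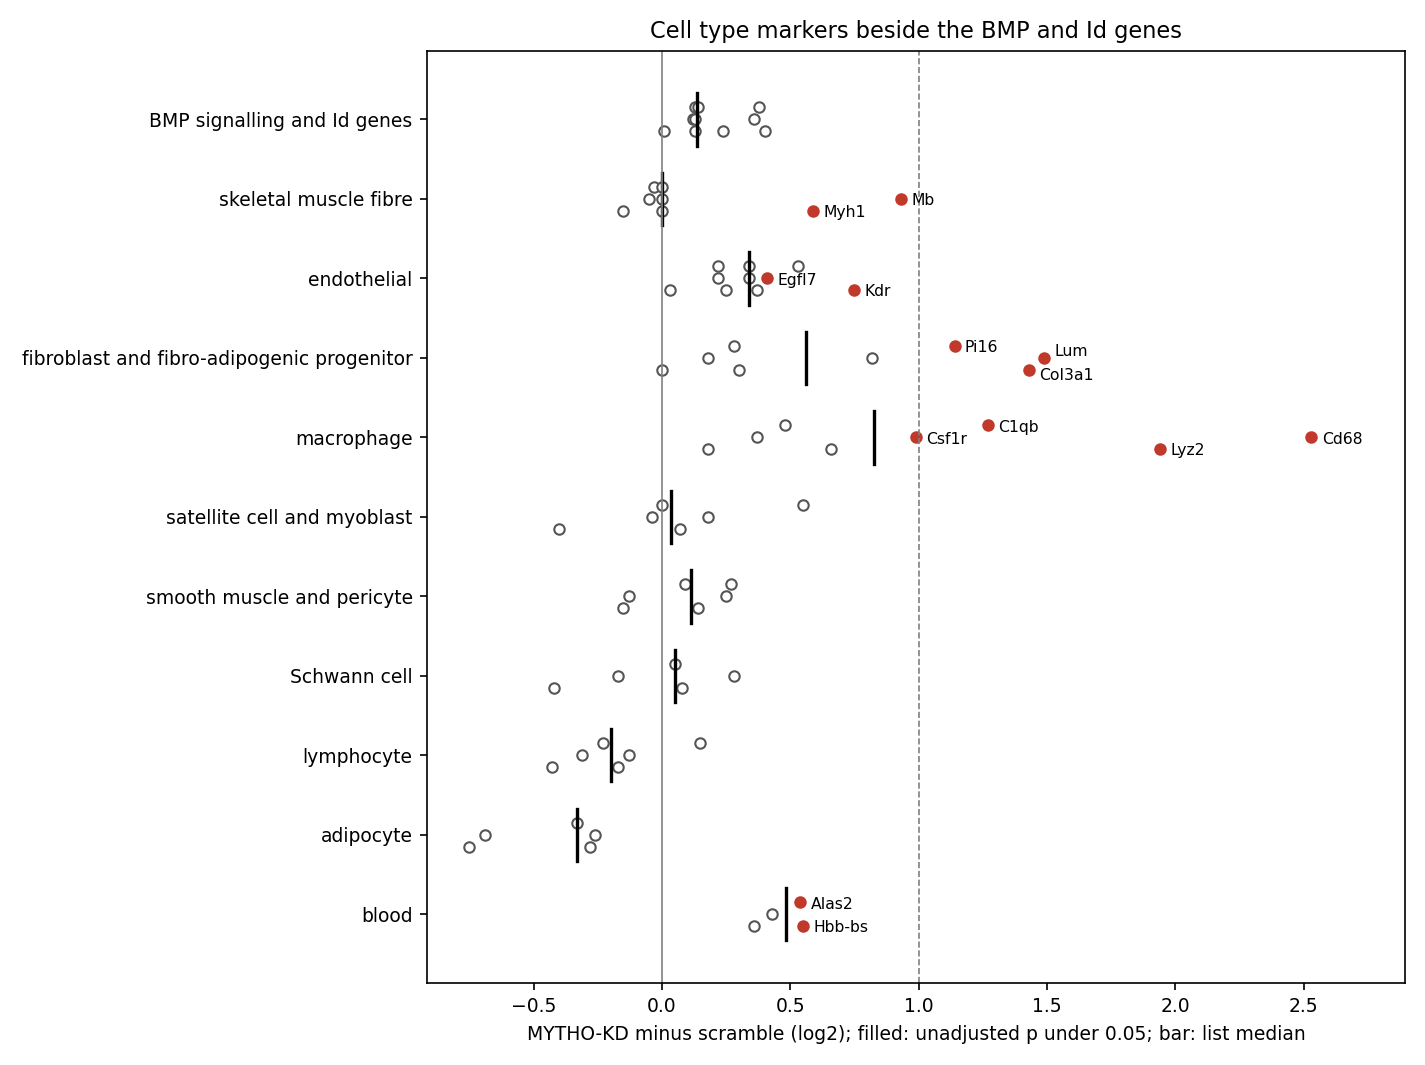
Log2 difference, MYTHO-KD minus scramble, of cell type markers by list (points), beside the 10 BMP and Id genes in the top row, with filled points at an unadjusted p under 0.05, a bar at each list's median and a dashed line at 2-fold. The macrophage and fibroblast lists reach 2.53 and 1.49, while the BMP and Id genes end at 0.40.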

How the data were processed

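RNA of GAS muscle from 4 MYTHO-KD and 4 scramble samples was hybridised to Clariom S Mouse arrays. Per the methods, raw signals went through the Transcriptome Analysis Console at its defaults, with SST-RMA, which widens log differences by a signal transformation, while the submitters' processing notes name Affymetrix Expression Console, RMA and mm10. The authors deposited 1 table of 28 columns that holds, per probe set, log2 averages and SDs by group, expressed flags, annotation and their own fold change, p-value and false discovery rate. Those comparison columns were not used. The table analysed has 0 columns of single arrays, and the kind of average is not stated. If the averages are robust ones, the p-values given here can be too low.

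The planned limma model on single arrays could not be fitted, so the same moderated test was computed from averages and SDs with limma 3.58.1 in R 4.3.3, after being tested on simulated data. The mean of both group variances, with 6 residual degrees of freedom, was moderated by squeezeVar towards a prior SD of 0.284 with 5.85 prior degrees of freedom. P-values are two-sided, adjusted by Benjamini-Hochberg over 22206 probe sets, of which 21 had an SD of 0 in a group. Nothing in the labels says that the arrays of a group come from separate mice, so p-values measure the spread between these samples. Arrays have no sequencing depth, and 4 per group limit the precision.

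Groups came from the sample titles. Rows were matched by gene symbol, with the brightest probe set taken for a gene with several. Named are the 10 members, genes of the 7 pathway lists at p under 0.05, Id4, Smad9, Smad4, Smad7, Acvr1, Nog and Fbxo30, the leading genes of marker lists and the targeted gene; the myogenic factors were named beside Tcf12 after their values were seen. The members and the lists were chosen with earlier results of these data known. Alternatives were the unmoderated variance, unequal variances, a robust fit with a mean trend, removal of probe sets dimmer than the 30th percentile of mean signal (5.71), 1 probe set per symbol, centring on the median difference and a 1.5-fold threshold. Gene coordinates are those of the table (mm10), and promoter sequences come from RefSeq (GRCm38.p6).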

Additional observations from a re-analysis of the deposited data

How the results depend on the processing

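The 10 BMP and Id genes gave 59 values under 6 alternatives besides the values reported, and all 59 kept their direction and did not pass an unadjusted p under 0.05. Id3 lies under the limit of the filter on dim probe sets and has no value there. The count of the 10 genes past each threshold was 0 in every alternative run. Of the 72 other BMP pathway genes, 6 passed an unadjusted p under 0.05, against 8 with a trend and robust fitting, 3 without moderation and 3 with unequal variances. In each of the settings that gave 3, Eng, Sostdc1 and Mstn were lost while Ski, Tcf12 and Gdf11 stayed past the threshold. The probe sets at 2-fold and p under 0.05 numbered 248, and 1287 at 1.5-fold, which is a looser rule by construction. The probe sets past an adjusted p under 0.05 numbered 61, against 2 without moderation, 2 with unequal variances and 189 with a trend and robust fitting, and the cause was not tested. Among the blood markers, Hbb-bs did not pass without moderation or with unequal variances, nor Alas2 with unequal variances. No paired analysis was possible because the table holds group averages only, although the methods place both viruses in opposite legs of a mouse. For the same reason, leaving out each replicate and normalizing the raw arrays again were not run. A fall of a dim transcript such as Id3 may be understated on this scale.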
